A study of Penicillium oxalicum with 9 samples.

Results

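The xylanase genes POX00063, POX06783 and POX08484 of Penicillium oxalicum were followed through 9 RNA sequencing libraries. They were taken by their gene IDs as the 3 xylanase genes of strain HP7-1, and all 3 were present among the 9834 IDs that each library lists. The study's question was the role of regulators of amylase genes. Mycelium was grown for 24 h in shaken liquid medium, and 3 strains gave 3 libraries each, lettered F, S and T. MuPOX01907 and MuPOX08340 are mutants of the genes POX01907 and POX08340, the first of them a deletion according to the series title, and the sample titles place both in 1% starch. Ku70, the strain set against them, lacks a gene of non-homologous end joining, and the titles place it in 1% Avicel, a microcrystalline cellulose. The growth protocol given for all 9 libraries names Avicel and the Ku70 mutant, so strain and stated medium cannot be told apart in either comparison with Ku70. Whether the mutants were built in the Ku70 strain, and whether each strain is 1 isolate, the sources used here do not say.

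Endo-xylanases cut the backbone of xylan, the main hemicellulose of grasses and hardwoods, and filamentous fungi secrete them together with cellulases to open plant cell walls. In such fungi the genes of both enzyme classes are commonly transcribed at a low basal rate. They are switched on together by zinc cluster activators when breakdown products of the polymers are sensed, and are held down by carbon catabolite repression when easily used sugars are present. The basal rate matters because the few enzymes made before induction release the first inducing sugars. The sources used here do not give the xylanase family of the 3 IDs.

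Libraries held between 14412296 and 14802260 expected counts, the estimated reads per gene. POX01907 had at most 3 counts in any MuPOX01907 library and POX08340 had 0 in all 3 MuPOX08340 libraries, against at least 1346 and at least 870 counts in the Ku70 libraries. POX08340 was also lower in MuPOX01907 than in Ku70, at 208 to 232 counts, whereas POX01907 had 1602 to 1968 counts in MuPOX08340. The cause of the lower POX08340 level was not tested. No label says that libraries of a strain came from separate cultures, so the tests measure only the spread between libraries, which may be technical. In bulk RNA, fewer hyphae that transcribe a gene and less transcript per hypha cannot be told apart. Levels are given in FPKM, which divides by gene length and library size and so allows genes of different length to be compared. Ku70 F stood apart from the other Ku70 libraries in all 3 xylanase genes, so every result that rests on it is given with and without it.

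POX00063 was at the edge of detection in 8 libraries and abundant in 1. It measured 0.78, 1.05 and 2.13 FPKM in MuPOX01907 F, S and T, 0.28, 0.67 and 0.67 FPKM in MuPOX08340 F, S and T, and 1405 FPKM in Ku70 F against 0.38 FPKM in Ku70 S and 0.82 FPKM in Ku70 T. The values outside Ku70 F rest on 5 to 39 counts per library, whereas Ku70 F held 25781. Every other library lay below 3 FPKM, and the strains overlapped there except for both mutants, whose values did not meet. Their gap lay between 0.67 FPKM (12 counts) and 0.78 FPKM (14 counts). The share of all IDs for which the mutants do not overlap was not counted.

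POX06783 was near or above the level of the median ID in 8 libraries and abundant in Ku70 F. It measured 70.12, 60.75 and 50.23 FPKM in MuPOX01907 F, S and T, 33.42, 29.44 and 27.55 FPKM in MuPOX08340 F, S and T, and 827 FPKM in Ku70 F against 18.76 FPKM in Ku70 S and 19.53 FPKM in Ku70 T. Outside Ku70 F the 3 strains formed separate steps that did not overlap, with MuPOX01907 highest and Ku70 lowest. The share of all IDs with such steps was not counted.

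POX08484 had an even basal level. It measured 18.45, 20.05 and 23.02 FPKM in MuPOX01907 F, S and T, 22.85, 25.88 and 25.54 FPKM in MuPOX08340 F, S and T, and 4832 FPKM in Ku70 F against 20.88 FPKM in Ku70 S and 29.13 FPKM in Ku70 T. Outside Ku70 F the highest value was 1.58 times the lowest, the strains overlapped, and Ku70 S and T lay on both sides of the MuPOX08340 values.

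**Figure D1:**
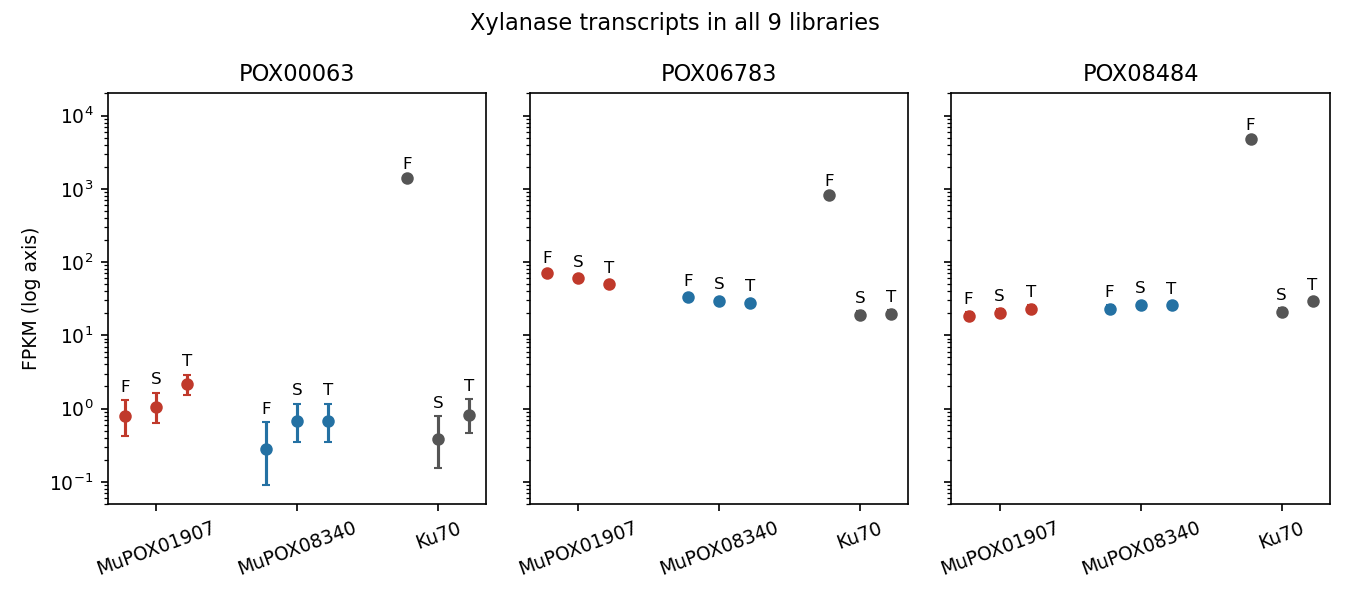
Level of each xylanase gene in FPKM (log axis) in every library, grouped by strain and lettered F, S and T, with bars for the exact Poisson 95% interval of the count. Ku70 F lies at 827 to 4832 FPKM and the other 8 libraries lie at or below 70.12 FPKM.

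In Ku70 F the 3 xylanase genes took 0.694% of all counts, and in Ku70 S and T 0.00362% and 0.00451%. By counts relative to library total, POX00063 was 2320.0-fold higher in Ku70 F than in Ku70 S and T together (95% interval 1532 to 3703, exact binomial), POX08484 193-fold (179 to 208) and POX06783 43.1-fold (39.3 to 47.2). These intervals cover counting error only, because Ku70 F is a single library. Over the highest of all other libraries, Ku70 F stood 660-fold higher for POX00063 (MuPOX01907 T), 166-fold for POX08484 (Ku70 T) and 11.8-fold for POX06783 (MuPOX01907 F). As a fold, the excess was largest for POX00063 by either measure. That gene had the lowest level in Ku70 S and T, at 22 counts, and this level enters the first fold itself. With 1 added to each FPKM value, the fold over the mean of Ku70 S and T ranked 6th for POX00063, 29th for POX08484 and 53rd for POX06783 among 9834 IDs. In level, POX08484 was the 20th most abundant ID of Ku70 F, POX00063 the 94th and POX06783 the 192nd.

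A high level in Ku70 F was shared with few IDs. Only 103 of 9834 IDs (1.05%) were at least 8-fold above both Ku70 S and Ku70 T and reached 10 FPKM there, and all 3 xylanase IDs and all 8 cellulase IDs were among them. The cellulase IDs were recalled from published work on HP7-1, are not named in the files and could not be checked here. They were POX01166, POX02740, POX04786, POX05570, POX05571, POX05587, POX06147 and POX07535. They spanned 69.0 to 6193 FPKM in Ku70 F, a range that encloses the xylanase values. The 18 IDs within 3 running numbers of a xylanase ID did not meet this rule, except POX08485, the number after POX08484. POX08485 measured 4384 FPKM in Ku70 F against a mean of 1.53 FPKM over Ku70 S and T, with means of 1.67 FPKM in MuPOX01907 and 1.06 FPKM in MuPOX08340. The sources used here do not say what POX08485 encodes, and whether the 2 IDs lie side by side in the genome was not tested.

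**Figure D2:**
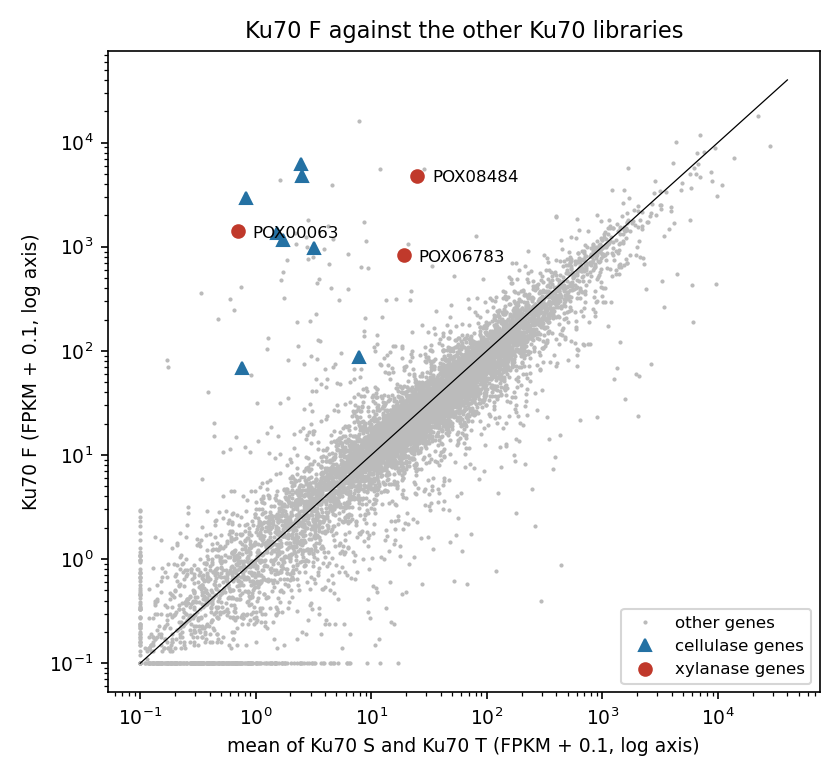
Ku70 F against the mean of Ku70 S and T for every ID, in FPKM with 0.1 added (log axes), with the line of equality. The xylanase IDs (red circles) and cellulase IDs (blue triangles) lie above the line, and POX06783 and POX08484 lie further right, at 19.1 and 25.005 FPKM, than POX00063 at 0.60 FPKM.

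With all 9 libraries, the Ku70 means were carried by Ku70 F. POX00063 averaged 1.32 ± 0.714 FPKM in MuPOX01907, 0.54 ± 0.225 FPKM in MuPOX08340 and 469 ± 811 FPKM in Ku70 (SD, n = 3 each), so that the SD in Ku70 exceeded the mean. POX06783 averaged 60.4 ± 9.95, 30.1 ± 2.996 and 288 ± 466 FPKM in MuPOX01907, MuPOX08340 and Ku70 (SD, n = 3 each), and POX08484 20.5 ± 2.32, 24.8 ± 1.66 and 1627 ± 2775 FPKM (SD, n = 3 each). Calls needed an adjusted p under 0.05 in edgeR's quasi-likelihood test and a change of at least 2-fold. In MuPOX01907 against Ku70, 2 of the 3 genes were called lower, beside 12.9% of all 8623 IDs tested. These were POX00063 (log2 -8.17, SE 2.73, edgeR adjusted p = 0.0400) and POX08484 (log2 -6.01, SE 1.91, edgeR adjusted p = 0.0337), while POX06783 did not pass (log2 -1.96, SE 1.24, edgeR adjusted p = 0.232). Without Ku70 F neither gene was lower: the log2 values were 1.46 for POX00063 and 0.06 for POX08484. Both calls were also lost without any 1 of the MuPOX01907 libraries (edgeR adjusted p 0.0973 to 0.120), with all of MuPOX08340 left out, and in limma. Without 1 MuPOX08340 library, the call of POX00063 was lost for each of the 3 (edgeR adjusted p 0.0561 to 0.0614) and that of POX08484 for MuPOX08340 S (edgeR adjusted p = 0.0527).

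In MuPOX08340 against Ku70 with all 9 libraries, edgeR called 0 of the 3 genes, beside 7.92% of the IDs tested, although all 3 had an unadjusted p under 0.05. The log2 values were -9.80 for POX00063 (SE 2.96, edgeR adjusted p = 0.0566), -6.09 for POX08484 (SE 1.92, adjusted p = 0.0631) and -3.31 for POX06783 (SE 1.31, adjusted p = 0.115). Without Ku70 S, POX00063 and POX08484 were called lower (log2 -10.43 and -6.71), and without Ku70 T all 3 were (log2 -10.38, -6.66 and -3.86 for POX00063, POX08484 and POX06783), in fits where Ku70 F was 1 of 2 Ku70 libraries. Without Ku70 F the log2 values were -0.17 for POX00063, -0.02 for POX08484 and 0.65 for POX06783, none of them called. Between both mutants edgeR called 0 of the 3 genes in the 9-library fit, beside 20.3% of the IDs, and 0 had an unadjusted p under 0.05. The SE there was 1.23 to 2.60 on the log2 scale, as the spread was shared with Ku70 F. Limma on the same 9 libraries called 0 of the 3 genes in each comparison, and 0 had an unadjusted p under 0.05. Over all IDs it called 19.9% in MuPOX01907 against Ku70, 6.04% in MuPOX08340 against Ku70 and 19.2% between the mutants.

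**Figure D3:**
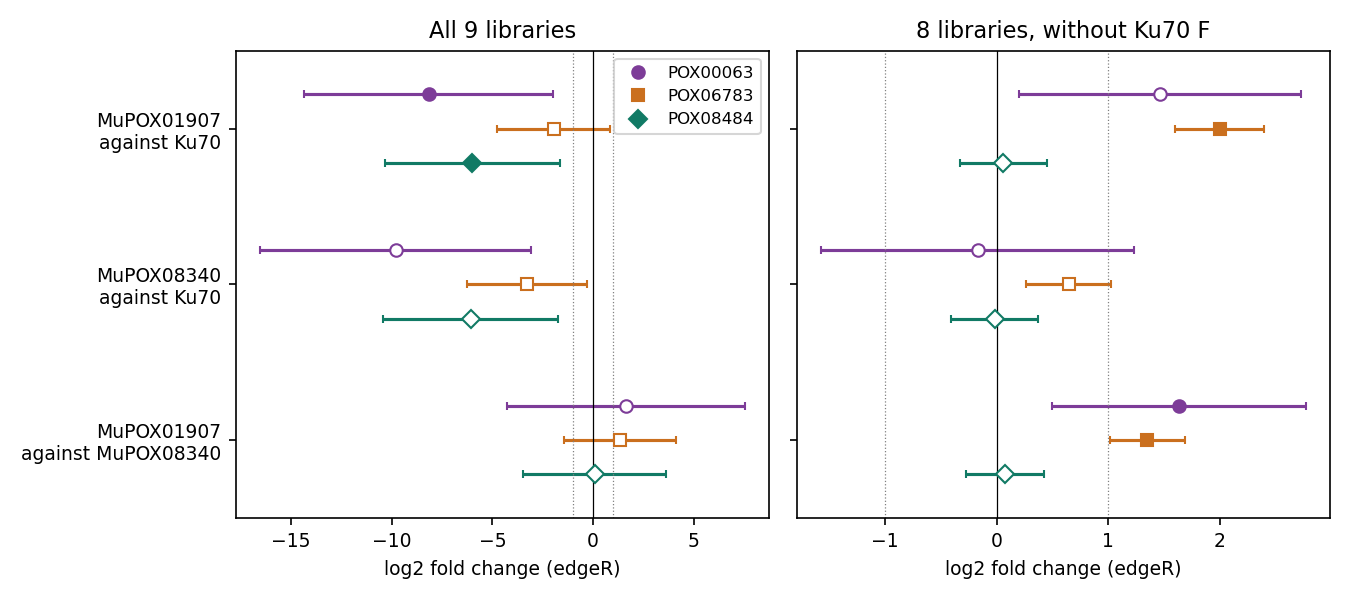
Log2 fold changes of the 3 genes from edgeR with 95% intervals, with all 9 libraries (left) and without Ku70 F (right, narrower axis), where filled symbols mark called genes and dotted lines the 2-fold limits. Intervals on the left reach from -16.53 to 7.53, and those on the right from -1.58 to 2.77.

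The basal levels were compared among the other 8 libraries, in a new fit across all IDs with 3, 3 and 2 libraries. Leaving out Ku70 F was decided with its values known. POX06783 had the clearest differences between strains. It averaged 60.4 ± 9.95 FPKM in MuPOX01907 (SD, n = 3), 30.1 ± 2.996 FPKM in MuPOX08340 (n = 3) and 19.1 ± 0.544 FPKM in Ku70 S and T (n = 2). In MuPOX01907 it was called higher than in Ku70, 3.99-fold (95% interval 3.03 to 5.26, log2 1.997, SE 0.174, edgeR adjusted p = 4.62e-05). Of all 8681 IDs tested, 10.0% were called higher in this comparison. POX06783 was also called higher in MuPOX01907 than in MuPOX08340, 2.55-fold (2.02 to 3.21, log2 1.35, SE 0.147, edgeR adjusted p = 0.000110), where 11.6% of the IDs were. In MuPOX08340 against Ku70 it was 1.57-fold higher (1.20 to 2.04, log2 0.65, SE 0.167, edgeR adjusted p = 0.0276), which stayed under the fold minimum, and 3.18% of the IDs were called higher there. Its adjusted p was above 0.05 without MuPOX01907 S (0.0572), MuPOX08340 S (0.0742), Ku70 S (0.113) or Ku70 T (0.0871), with edgeR log2 values of 0.65 to 0.66.

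The size of the change in POX06783 moved with the scaling. As ratios of mean FPKM, MuPOX01907 was 3.15-fold above Ku70 S and T and 2.003-fold above MuPOX08340. In edgeR, scaling to library totals put the median ID of MuPOX01907 at log2 -0.37 and -0.39 against those strains, and edgeR's own factors put it at -0.03 and -0.05. With limma on log2(FPKM + 1) the difference between both mutants was 0.97 (adjusted p = 0.000563) and so under the fold minimum, and that from Ku70 was 1.59 (adjusted p = 9.77e-05). Within MuPOX01907 the coefficient of variation of its counts relative to library total was 16.6%, or 4.58 times what counting alone gives, with F highest and T lowest. In Ku70 S and T it was 2.88%, or 0.449 times counting error.

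POX00063 was also called higher in MuPOX01907 than in MuPOX08340, at 72 against 29 counts in all (3.10-fold, 95% interval 1.41 to 6.81, log2 1.63, SE 0.498, edgeR adjusted p = 0.0242). So 2 of the 3 xylanase genes were called higher between the mutants, beside 11.6% of all IDs. For POX00063 this rested on single libraries. MuPOX01907 T held 39 of the 72 counts, and without it the log2 difference was 1.10 (adjusted p = 0.0971). Without MuPOX08340 F, which held 5 counts, it was 1.31 (adjusted p = 0.0631), and with library totals as the scaling 1.29 (adjusted p = 0.0503). Against Ku70 S and T, which held 22 counts, POX00063 was 2.76-fold higher in MuPOX01907 (1.15 to 6.63, log2 1.46, SE 0.555, edgeR adjusted p = 0.0579) and 0.888-fold in MuPOX08340 (0.335 to 2.35, log2 -0.17, SE 0.616, edgeR adjusted p = 0.857), and neither passed. The value for MuPOX01907 against Ku70 was called without MuPOX01907 F (log2 1.73, edgeR adjusted p = 0.0375) or without MuPOX08340 F (log2 1.46, adjusted p = 0.0455), and with the library letter as a block (log2 1.75, adjusted p = 0.00423).

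POX08484 was not called in any of these comparisons. Its level was 1.04-fold that of Ku70 in MuPOX01907 (95% interval 0.794 to 1.36, log2 0.06, SE 0.171, edgeR adjusted p = 0.802) and 0.989-fold in MuPOX08340 (0.755 to 1.29, log2 -0.02, SE 0.170, edgeR adjusted p = 0.951). Between MuPOX01907 and MuPOX08340 it was 1.05-fold (0.827 to 1.34, log2 0.07, SE 0.153, edgeR adjusted p = 0.713). The intervals leave out a 2-fold change in either direction, and scaling to library totals turned the sign in MuPOX01907 against Ku70 (log2 -0.29) and against MuPOX08340 (log2 -0.27), but not in MuPOX08340 against Ku70. Ku70 S and T themselves differed 1.40-fold, a coefficient of variation of 23.4% and 4.32 times counting error, more than within MuPOX01907 (11.2%) or MuPOX08340 (6.79%).

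**Figure D4:**
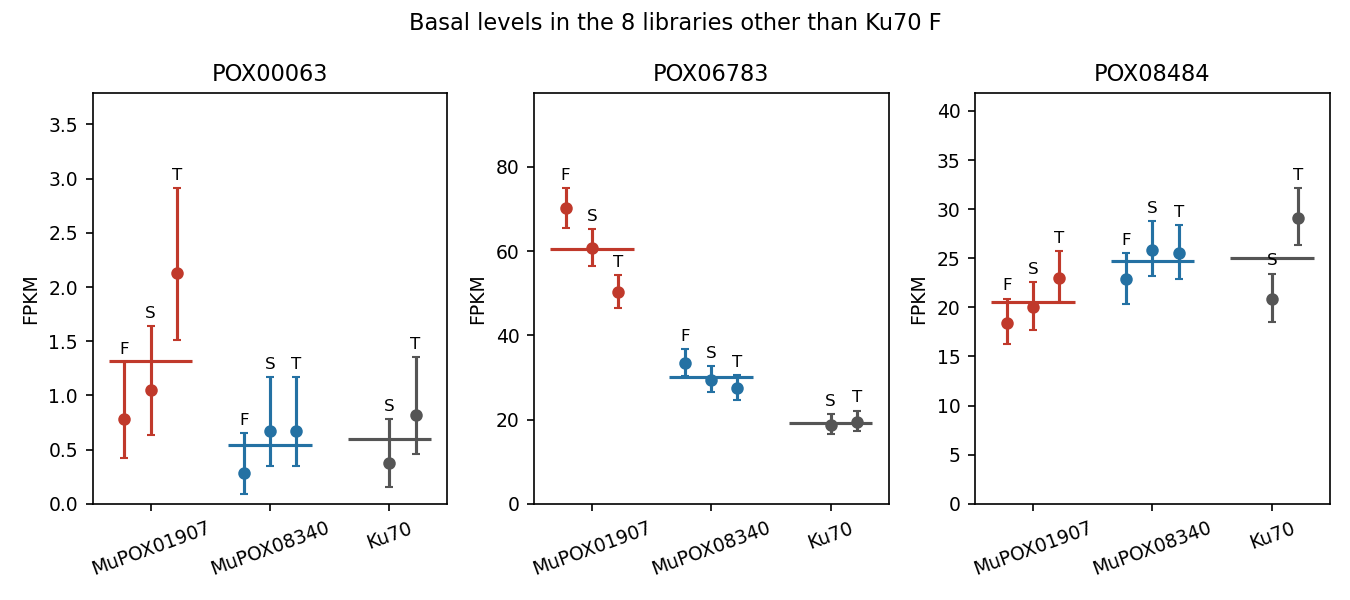
Basal level in FPKM (linear axes from 0) in the 8 libraries other than Ku70 F, lettered F, S and T, with exact Poisson 95% intervals of the counts and a horizontal line at each strain's mean. The lines of POX06783 lie at 60.4 FPKM in MuPOX01907, 30.1 FPKM in MuPOX08340 and 19.1 FPKM in Ku70, whereas the points of POX08484 all lie between 18.45 and 29.13 FPKM.

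The make-up of the xylanase transcripts differed accordingly. POX06783 made up 78.5%, 74.2% and 66.6% of the summed xylanase FPKM in MuPOX01907 F, S and T and 59.1%, 52.6% and 51.2% in MuPOX08340 F, S and T. In Ku70 it made up 11.7% in F and 46.9% and 39.5% in S and T. By these values it was the leading xylanase transcript in all 6 mutant libraries, and POX08484 was in all 3 Ku70 libraries, at 68.4% in F and 52.2% and 58.9% in S and T. In MuPOX08340 S and T and in Ku70 S the lead lay within counting error. POX00063 made up 19.9% in Ku70 F and at most 2.83% elsewhere. The summed level was 75.4 to 89.4 FPKM in MuPOX01907, 53.8 to 56.6 FPKM in MuPOX08340, and 7064 FPKM in Ku70 F against 40.0 FPKM in Ku70 S and 49.5 FPKM in Ku70 T.

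A ratio of 2 genes within a library does not depend on how libraries are scaled. POX06783 stood 3.80, 3.03 and 2.18 times above POX08484 in MuPOX01907 F, S and T and 1.46, 1.14 and 1.08 times in MuPOX08340 F, S and T. In Ku70 the ratio was 0.171 in F and 0.898 and 0.670 in S and T. The mean log2 ratio was 1.55 ± 0.403 in MuPOX01907 and 0.28 ± 0.235 in MuPOX08340 (SD, n = 3 each), without overlap. The difference of 1.27 had a two-sided exact permutation p = 0.1, the smallest that 3 against 3 libraries can give. The permutation took no account of the letters, although this ratio fell from F to S to T in both mutants. The log2 ratio of POX06783 to POX00063 was 5.63 ± 0.984 in MuPOX01907 and 5.91 ± 0.861 in MuPOX08340 (SD, n = 3 each), a difference of -0.27 within the spread (exact permutation p = 0.8), whose sign turned without MuPOX01907 T or MuPOX08340 F. POX06783 stood 49.4 and 23.8 times above POX00063 in Ku70 S and T, whereas in Ku70 F the ratio was 0.588.

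**Figure D5:**
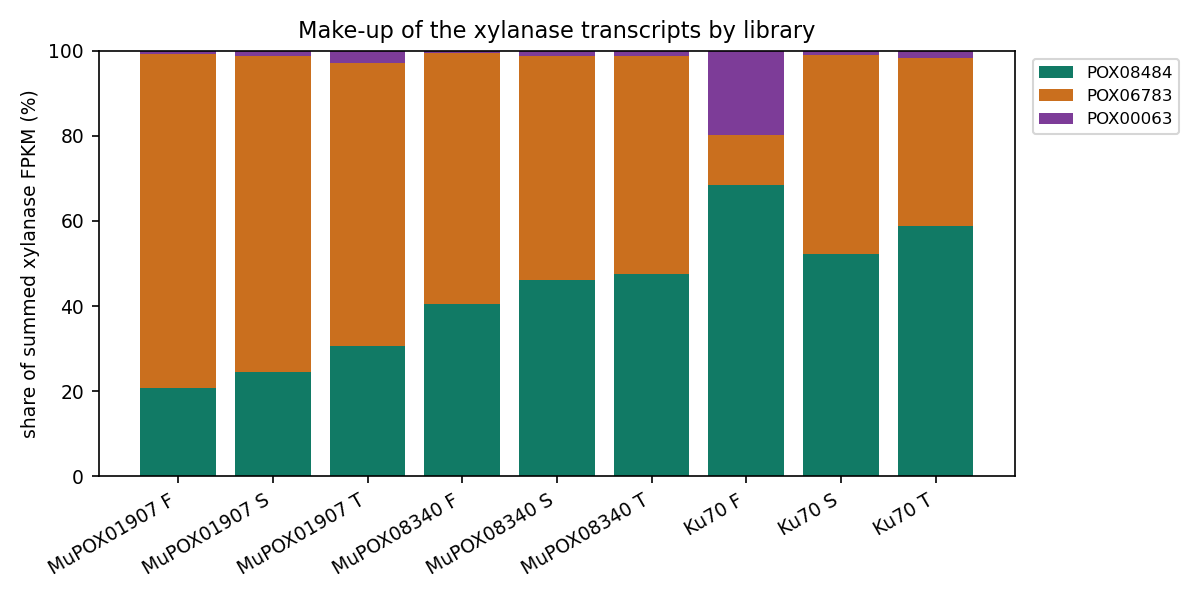
Share of each gene in the summed FPKM of the 3 xylanase genes (%), by library. POX06783 (orange) leads in the mutant libraries with 51.2% to 78.5%, POX08484 (green) leads in the Ku70 libraries with 52.2% to 68.4%, and POX00063 (purple) reaches 19.9% in Ku70 F. The leads in MuPOX08340 S and T and in Ku70 S lie within counting error.

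Set beside the cellulase genes, the xylanase genes differed in basal level. Over the 8 libraries the cellulase IDs lay between 0.14 and 10.34 FPKM with a median of 1.85 FPKM, a range that holds all 8 values of POX00063 (median 0.725 FPKM). POX06783 and POX08484 lay above it in every library, with medians of 31.4 and 22.9 FPKM, and in each mutant library both exceeded the level of the median ID. POX07535 was the cellulase ID with the highest basal level, at 4.72 to 10.34 FPKM, and POX06783 and POX08484 in each of the 8 libraries stood above the upper end of that range. Without Ku70 F, 7 of the 8 cellulase IDs were tested. Of these, edgeR called 1 in MuPOX01907 against Ku70, POX05571, which was higher (log2 1.08, edgeR adjusted p = 0.0204), beside 10.0% of all IDs called higher. In MuPOX08340 against Ku70 edgeR called 0, beside 3.18% of all IDs called higher, and 2 had an unadjusted p under 0.05. Between the mutants it called 2, beside 11.6% of all IDs called higher, namely POX04786 (log2 1.47, edgeR adjusted p = 0.0300) and POX07535 (log2 1.18, edgeR adjusted p = 0.000751), both higher in MuPOX01907. The median log2 fold changes of the 7 were 0.66, -0.32 and 1.00 in MuPOX01907 against Ku70, MuPOX08340 against Ku70 and MuPOX01907 against MuPOX08340, beside medians over all IDs of -0.03, -0.002 and -0.05.

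The IDs with the most similar pattern were different for each xylanase gene. Likeness was the root mean square difference of log2(FPKM + 1), each gene centred on its own mean, among IDs with a mean of at least 1 FPKM over the 9 libraries. Over the 9 libraries, where Ku70 F carries most of the pattern, the 3 IDs most like POX00063 were the cellulase IDs POX05571, POX05570 and POX05587, at 0.306, 0.330 and 0.391 against a median of 3.07 over all IDs. For POX08484 they were POX01177, the cellulase ID POX06147 and POX01178, at 0.147, 0.197 and 0.203 (median 2.43), and for POX06783 they were POX01833, POX03430 and POX08307, at 0.501, 0.551 and 0.555 (median 1.65). POX01177, POX01178 and POX05587 passed the minimum of 1 FPKM only through Ku70 F. In MuPOX01907 they averaged 0.20, 0.12 and 0.947 FPKM, and in MuPOX08340 0.467, 0.54 and 0.813 FPKM. POX00063 itself also passed that minimum only through Ku70 F, with a mean of 0.848 FPKM over the other libraries. Outside Ku70 F, POX05571, POX05570 and POX06147 spanned 1.08 to 3.04, 0.43 to 3.08 and 2.76 to 4.01 FPKM. In Ku70 F they measured 1349, 1159 and 968.5 FPKM. The likeness of all these IDs to POX00063 or POX08484 thus rests on Ku70 F. The other xylanase genes were less alike than these, with differences of 0.733 between POX00063 and POX08484, 1.24 between POX06783 and POX08484 and 1.69 between POX00063 and POX06783. Among 8588 IDs, POX08484 ranked 17th and POX06783 63rd in likeness to POX00063. To POX08484, POX00063 ranked 38th and POX06783 71st. To POX06783, POX08484 ranked 209th and POX00063 only 5042nd, beyond the median. Without Ku70 F, POX06783 and POX08484 differed by 0.797, and ranked 3416th from POX06783 and 7640th from POX08484.

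Over the 8 libraries without Ku70 F the nearest IDs changed. Those most like POX06783 were POX04678, POX05615 and POX07853, at 0.0965, 0.155 and 0.163 (median 0.861). POX04678 averaged 13.5 FPKM in MuPOX01907, 6.20 FPKM in MuPOX08340 and 3.56 FPKM over Ku70 S and T. In Ku70 F it measured 3.31 FPKM. It shared the basal order of strains with POX06783 but was not high in Ku70 F. POX05615 and POX07853 measured 94.8 and 8.62 FPKM in Ku70 F, against means of 68.9 and 11.1 FPKM over S and T of the same strain. The IDs most like POX08484 were POX08913, POX04994 and POX07679, at 0.0636, 0.0649 and 0.0720 (median 0.366). POX00063 passed the minimum of 1 FPKM only through Ku70 F, as its mean over the 8 libraries was 0.848 FPKM, and its nearest IDs there are not named. The sources used here do not say what these IDs encode.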

How the data were processed

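Each deposited file holds expected counts, which per the file headers are estimated per gene, and FPKM values, scaled by the authors to gene length and library size. Software named in the submitters' processing notes was RSEM 1.2.12, Bowtie2 2.1.0, DESeq2 and BWA 0.7.10-r789. What each did, the genome build, strandedness and the handling of reads shared by similar or overlapping genes remain unstated in the sources used here. FPKM were used as deposited.

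Expected counts were rounded and tested with edgeR 4.0.16 in R 4.3.3 (quasi-likelihood, TMM factors, filterByExpr, 1 model over the 3 strains), with Benjamini-Hochberg adjustment over all IDs tested. SE and 95% intervals were derived from its F statistic. The fit was made with 9 libraries and again without Ku70 F. Alternatives were RLE factors, library totals, no filter on low counts, the 2 strains compared only, the library letter as a block, each library left out, DESeq2 1.42.0 and limma 3.58.1 with a trend on log2(FPKM + 1) or log2(FPKM + 0.1) where the mean FPKM was at least 1. Adjusted p-values left NA by DESeq2 were not replaced. The edgeR, limma and DESeq2 steps were tested on simulated data with the same spread setting for all IDs and no outlying library. That test does not cover fits that hold a library like Ku70 F. Ratios within a library were compared by exact permutation. The members, the cellulase list and the tests were chosen with earlier results of these data known. The named IDs were the 3 members, the lists, for likeness the 3 nearest IDs, and 3 running numbers to each side of a member. POX08485 is named by that rule, and was picked from the 18 once its values were known.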

Additional observations from a re-analysis of the deposited data

How the results depend on the processing

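With 9 libraries, the values of the xylanase genes against Ku70 rested on Ku70 F. DESeq2 left all of their adjusted p-values at NA. In MuPOX01907 against Ku70, the log2 values of POX00063 and POX08484 were no longer called with limma on log2(FPKM + 1) (-2.76 and -2.78) or log2(FPKM + 0.1) (-2.70 and -2.81), with the 2 strains only (-8.18 and -6.02) or with the replicate block (-3.91 and -3.34). Leaving out each library gave -8.82 to 1.46 for POX00063, -6.65 to 0.058 for POX08484 and -2.57 to 1.997 for POX06783, the upper ends without Ku70 F. In MuPOX08340 against Ku70 the ranges were -10.43 to -0.17, -6.71 to -0.017 and -3.90 to 0.65. Between the mutants POX00063 (1.64) and POX06783 (1.36) were called with the 2 strains only, and leaving out each library gave 1.10 to 1.90 and 1.22 to 1.47. POX08484 turned to -0.27 with library totals, -0.26 with limma on log2(FPKM + 1) and -0.27 with log2(FPKM + 0.1), and ranged from -0.018 to 0.14 with a library left out.

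Without Ku70 F, POX06783 stayed higher in MuPOX01907 than in Ku70 and was called under all 16 alternatives (log2 1.59 to 2.11). Between the mutants it was called under 14 of 16 (0.97 to 1.47), the exceptions being limma on log2(FPKM + 1) (0.97) and on log2(FPKM + 0.1) (0.99). The call with library totals, at 1.0003, passed the fold minimum only barely. Limma's filter removed POX00063, which was called in MuPOX01907 against Ku70 with the replicate block (1.75) and ranged from 0.93 to 2.07 with a library left out. It was called between the mutants under 11 of 14 alternatives, with 1.29 under library totals and 1.10 to 1.90 with a library left out. With the replicate block that value was 1.60 (edgeR adjusted p = 0.00337). In MuPOX08340 against Ku70 the sign of POX00063 turned with the replicate block (0.14) and its range was -0.58 to 0.44. POX08484 was called under 0 of 16 alternatives in each comparison, and its sign turned. In MuPOX01907 against Ku70 it was -0.29 with library totals, -0.26 and -0.27 with limma, and -0.11 to 0.28 with a library left out. Between the mutants it was -0.27, -0.26 and -0.27 under the same settings, and -0.019 to 0.14 with a library left out. In MuPOX08340 against Ku70 it was 0.0025 and 0.0032 with limma, 0.0087 with the 2 strains only, 0.059 with the replicate block, and -0.20 to 0.21. A lone Ku70 library is assumed to vary like the other strains. The log2 ratio of POX06783 to POX00063 ranged from -0.70 to 0.27 with a library left out. Same-lettered libraries of different strains had correlated deviations from their strain means in 3 of 9 pairs only (over 0.1, range -0.177 to 0.566), so the letters were not taken to pair them. Between the mutants alone the same-lettered pairs were at 0.566 (F), 0.0996 (S) and 0.448 (T) and other pairs at -0.536 to 0.226, so a shared source of same-lettered mutant libraries was not settled. There MuPOX01907 S correlated better with MuPOX08340 T than with MuPOX08340 S. The cause of a change with the setting was not tested, except that fewer libraries enter some fits. Depth limits POX00063 outside Ku70 F, at 5 to 39 counts.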
